A study of Mus musculus with 2 samples.

Results

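The genes described here encode the proteins of the cytosolic ribosome. They are all rows in both expression tables whose symbol is Rpl or Rps followed by digits with an optional letter or l suffix, or is Rplp0, Rplp1, Rplp2 or Rpsa. Symbols that hold -ps, which mark pseudogenes, and the Rps6k kinases were left out. The rule took 82 of 24357 named genes, 32 of the small and 50 of the large subunit. Of the 82, 76 are standard subunits and 6 are paralogs, namely Rpl3l, Rpl10l, Rpl39l, Rps27l, Rps4l and Rpl36al. The rule uses symbols alone.

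The study sequenced messenger RNA of ileal epithelial cells from wildtype C57BL/6 mice on an Illumina HiSeq instrument, with Nod-like receptors named in its title. Cells were freed from the ileum with EDTA, and those carrying the epithelial protein EpCAM, without the leukocyte protein CD45 and without the dead-cell dye 7AAD, were collected by flow cytometry. The 2 libraries form 1 group and are called replicate 1 and replicate 2 in accession order. No other genotype, treatment or age is given, and separate animals are not stated, so the spread given here is only that between these 2 libraries. With 2 libraries of 1 group no contrast could be tested, so all results are descriptions. Even 2 values against 2, a comparison not available here, could not go below p = 0.333 in an exact two-sided permutation test. Values are FPKM, fragments scaled to transcript length and to the size of the library, and thus levels per length. Pairs of values give replicate 1 first and replicate 2 second.

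A ribosome is built from ribosomal RNA and one copy of most ribosomal proteins, which are made in the cytosol, carried into the nucleolus and assembled there into the small and the large subunit. The small subunit reads the messenger RNA, and the large subunit joins amino acids. Ribosomal protein messages begin with a cytosine followed by an uninterrupted stretch of pyrimidines, the TOP motif, through which mTOR signalling and the RNA-binding protein Larp1 set their translation. In the intestinal crypt, dividing cells need many new ribosomes. Mammalian genomes also hold very many processed copies of these genes, which arose by reverse transcription of the spliced message and therefore lack introns.

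As a base for the levels, the libraries held about 16000000 and 26000000 fragments as read from the steps between the lowest values. Epcam, the gene of the sorted protein, had 696 and 644 FPKM, and 8 of 8 epithelial genes reached 1 FPKM in both libraries. Of leukocyte and stromal markers, 1 of 7 T cell genes, 0 of 6 B and plasma cell genes, 2 of 6 myeloid genes and 0 of 9 stromal genes did so. Their summed levels were 4.53 and 9.22 FPKM for T cell, 0.774 and 0.617 FPKM for B and plasma cell, 9.69 and 9.18 FPKM for myeloid and 0.816 and 0.386 FPKM for stromal markers, with Mzb1, Pdgfra and Cdh5 listed at 0 in both libraries. Xist, the RNA that coats an inactive X, had 7.91 and 0.00640 FPKM, and the Y-linked Eif2s3y had 0 and 14.9 FPKM, so the libraries differed in sex-linked transcripts.

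The sequences that bear most on the levels are those of 4 members and of intronless copies that the tables list as separate rows. The copies were picked after their values were seen. Rps27, a zinc-binding protein of the small subunit, lies on chr3:90212522-90213651, minus strand, with 4 exons in its principal transcript (mm10, GENCODE M21). Rps27rt lies on chr9:114982366-114982739, minus strand, in 1 exon, and is annotated as a protein-coding gene. Over the 255 bases of the coding sequence, from start to stop codon, Rps27 and Rps27rt had 0 differences, so a single run stands for both. Capitals mark the start and the stop codon.
Rps27 and Rps27rt: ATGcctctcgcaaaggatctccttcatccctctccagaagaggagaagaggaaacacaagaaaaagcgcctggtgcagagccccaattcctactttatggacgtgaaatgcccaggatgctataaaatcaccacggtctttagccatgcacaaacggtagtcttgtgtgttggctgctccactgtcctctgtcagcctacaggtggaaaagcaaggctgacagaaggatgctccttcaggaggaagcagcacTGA

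The other 3 pairs differ at 1 or 2 coding positions, counted from 1 at the A of the start codon, with the member's base first. Rpl26 (chr11:68901583-68906989, plus strand) and Gm15772 (chr5:3236431-3236868, plus strand) differ by C177T and T288C over 438 bases. Rpl30 (chr15:34440505-34443640, minus strand) and Gm12191 (chr11:49678710-49679057, minus strand) differ by G96A over 348 bases. Rpl34 (chr3:130726831-130730398, minus strand) and Rpl34-ps1 (chr6:71124610-71124963, plus strand) differ by T132C and C318G over 354 bases. The 3 copies are annotated as processed pseudogenes of 1 exon, while the 3 members have 4, 4 and 5 exons. The windows of 49 bases around the first difference of each pair are given to show how little separates the rows, with the base that differs in capitals.
Rpl26: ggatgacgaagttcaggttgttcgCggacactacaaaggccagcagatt
Gm15772: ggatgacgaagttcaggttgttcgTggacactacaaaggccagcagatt
Rpl30: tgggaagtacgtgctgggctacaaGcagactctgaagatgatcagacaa
Gm12191: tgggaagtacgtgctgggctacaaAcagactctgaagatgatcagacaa
Rpl34: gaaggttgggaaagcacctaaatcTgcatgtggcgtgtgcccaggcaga
Rpl34-ps1: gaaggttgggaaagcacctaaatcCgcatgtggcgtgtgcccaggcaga

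The messages of the cytosolic ribosome were among the most abundant of the epithelium. The median over the 82 genes was 658 and 741 FPKM, against 0.320 and 0.318 FPKM over all genes. Of the 82, 79 reached 1 FPKM in both libraries, where 42.3% of all genes did. At least 100 FPKM in both was reached by 73 of 82, against 2.90% of all genes. The highest 1% of genes, 244 genes in each library, included 63 members in replicate 1 and 64 in replicate 2. Although they are 0.337% of the genes, the members held 9.30% of the summed FPKM in replicate 1 and 9.82% in replicate 2. In sorted cells taken as a whole, fewer cells of a type and less RNA per cell cannot be told apart.

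**Figure D1:**
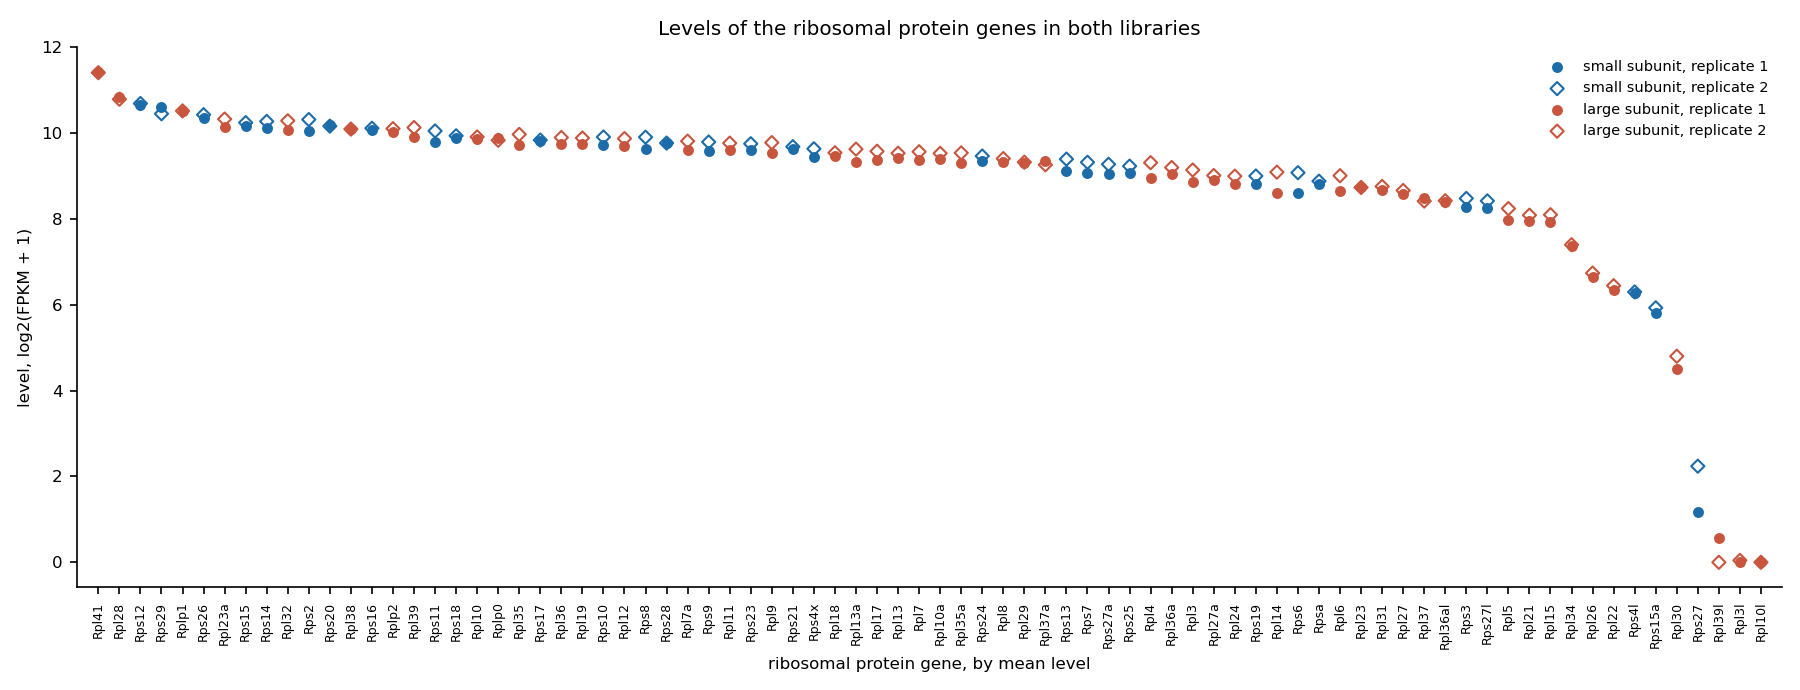
Level of 80 of the 82 ribosomal protein genes as log2(FPKM + 1), ordered by mean, with filled circles for replicate 1 and open diamonds for replicate 2, blue for the small and red for the large subunit. Rpl41 is highest at 2769 and 2718 FPKM, 57 of the 82 members have a mean between 400 and 1200 FPKM, and the values fall off steeply over the last members to Rpl10l, listed at 0 in both libraries.

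Rpl41 was the highest member, with 2769 and 2718 FPKM. It encodes the smallest ribosomal protein, from 78 coding bases, and ranked at place 22 and 28 among all genes. Rpl28 of the large subunit had 1841 and 1769 FPKM, and Rps12 of the small subunit had 1608 and 1652 FPKM. Rps29, a small zinc-binding protein of the small subunit, had 1559 and 1400 FPKM, and Rplp1, an acidic protein of the stalk, had 1457 and 1465 FPKM. In this order Rpl41 lay above Rpl28, Rpl28 above Rps12 and Rps12 above Rps29 in every pairing of the libraries, while the values of Rps29 and Rplp1 overlapped. Over the whole order, 17 of 81 neighbouring pairs did not overlap.

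Most members lay close together. The 10th and 90th percentile of the mean were 109 and 1172 FPKM, a 10.8-fold range, and the SD of the mean levels on the log2(FPKM + 1) scale was 1.39 over the 79 members with a mean of 1 FPKM or more. Small subunit genes had a median of 782 and 842 FPKM. Large subunit genes had 636 and 659 FPKM. The difference of these medians was 0.33 on the log2(FPKM + 1) scale, or 0.22 over standard subunits alone, with those of other symbols added.

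Subunits that carry other symbols stood at similar levels. Fau, a ubiquitin-like protein fused to a small subunit protein, had 1389 and 1318 FPKM. Gnb2l1, the scaffold Rack1 on the head of the small subunit, had 643 and 685 FPKM, and Rps3a1 had 691 and 777 FPKM. Among the members, Rps27a encodes ubiquitin fused to a small subunit protein and had 532 and 618 FPKM. These 4 genes lie within the range of the standard members.

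The stalk of the large subunit recruits the elongation factors. Its base, Rplp0, had 946 and 912 FPKM, and the acidic protein Rplp2 had 1037 and 1100 FPKM, below Rplp1. Of the proteins around the exit of the peptide tunnel, Rpl23a had 1121 and 1285 FPKM, Rpl35 had 843 and 1003 FPKM, Rpl19 had 861 and 946 FPKM and Rpl31 had 407 and 432 FPKM. Rpl26, also at the exit, had 98.9 and 106 FPKM. As a row of its own it stood below the other 4 in both libraries. The sum of its FPKM and those of the shorter copy Gm15772 lay above Rpl19 and Rpl31.

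Rpl5 and Rpl11 bind, with a small ribosomal RNA, the Trp53 regulator Mdm2 when ribosome assembly fails. Rpl5 had 249 and 302 FPKM, while Rpl11 had 777 and 871 FPKM. Rpl11 was thus the higher partner by FPKM in each library. Its principal annotated transcript has 833 bases and that of Rpl5 2045, and the part of transcript choice in this order was not tested. Mdm2 itself had 7.45 and 10.3 FPKM and Trp53 had 21.1 and 24.6 FPKM.

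On the small subunit, Rps6, the substrate of the S6 kinases, had 392 and 540 FPKM. Rps3, at the entry of the messenger RNA, had 311 and 356 FPKM, and Rps2, its neighbour there, had 1061 and 1275 FPKM. Rps2 lay above Rps3 in both libraries. Their principal annotated transcripts have 1094 and 1908 bases, FPKM divide by length, and the part of transcript choice in this order was not tested. Rpsa, also known as the laminin receptor, had 449 and 471 FPKM. Rps19, the gene first tied to Diamond-Blackfan anaemia in humans, had 450 and 512 FPKM. These 2 overlapped with each other and lay below the median of the small subunit.

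Further members with known special roles lay in the main group. Rpl13a, which in human monocytes leaves the ribosome to silence inflammatory messages, had 643 and 790 FPKM. Rpl38, needed in mouse embryos for the translation of Hox messages, had 1093 FPKM in both libraries. Rps25, needed for translation from some internal entry sites, had 537 and 600 FPKM. The means of these 3 members thus spanned 569 to 1093 FPKM.

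Of the members, 4 lie on the X chromosome. Rpl10, needed for the last step of large subunit maturation, had 925 and 963 FPKM. Rpl39 of the peptide tunnel had 961 and 1120 FPKM, Rpl36a had 528 and 587 FPKM, and Rps4x had 699 and 794 FPKM. Their median difference of 0.17 on the log2(FPKM + 1) scale lay near the 0.14 of all members with a mean of 1 FPKM or more, beside the opposite sex-linked transcripts of the libraries. The 82 members are spread over 19 chromosomes, with 14 of them on chromosome 7.

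Among the lowest members were tissue-restricted paralogs and genes with a highly listed copy. Rpl10l, a testis paralog of Rpl10, was listed at 0 in both libraries. Rpl3l, a paralog of Rpl3 in heart and skeletal muscle, had 0 and 0.0315 FPKM, about 1 fragment in replicate 2, and Rpl39l, a testis paralog of Rpl39, had 0.472 and 0 FPKM. Their parents Rpl3 and Rpl39 had 460 and 564 FPKM and 961 and 1120 FPKM. The 3 paralogs share 84.8% (Rpl10l), 73.2% (Rpl3l) and 85.3% (Rpl39l) of coding positions with their parents, and Rpl3l and Rpl39l had no 50-base coding word in common with another gene.

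Other paralogs were well detected. Rps27l, a target of Trp53, had 304 and 342 FPKM. Rpl36al had 334 and 343 FPKM, or 38.7% and 36.9% of its sum with Rpl36a. In both genes 100% of the 50-base coding words occur in other genes, and the part of shared reads in these levels was not tested. Rps4l, which is annotated as a transcribed processed pseudogene, had 77.0 and 77.7 FPKM, or 9.92% and 8.91% of its sum with Rps4x. Rpl22l1, outside the rule by its symbol, had 162 and 218 FPKM and lay above its parent Rpl22, with 80.7 and 86.1 FPKM. The ratio of Rpl22l1 to Rpl22 was 2.0 and 2.53. The pair shares 67.5% of coding positions, and 30.8% of the 50-base coding words of Rpl22 occur in other genes. Rpl7l1, an assembly factor related to Rpl7, had 18.5 and 24.8 FPKM, against 658 and 758 FPKM for Rpl7.

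Rps27, Rpl30, Rpl26 and Rpl34 were low as rows of their own, and each of their copies printed above was listed far higher. Rps27 had 1.24 and 3.72 FPKM, about 3.7 and 17.9 fragments. Rps27rt had 2166 and 2391 FPKM. The row of the copy thus held 99.9% and 99.8% of their sum, and the sum lay above every member except Rpl41.

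Rpl30, which in yeast binds its own message, had 21.6 and 26.9 FPKM, and Gm12191 had 709 and 782 FPKM, 32.9 and 29.1 times as much. Rpl26 had 98.9 and 106 FPKM, and Gm15772 had 923 and 888 FPKM, 9.33 and 8.39 times as much. Rpl34 of the large subunit had 164 and 168 FPKM, and Rpl34-ps1 had 698 and 723 FPKM, 4.26 and 4.31 times as much. In every pair the copy was the higher row in each library by FPKM, which divide by length, and the rows of a pair differ in length.

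Member and copy together came to 2168 and 2395 FPKM for Rps27, 731 and 809 FPKM for Rpl30, 1022 and 993 FPKM for Rpl26 and 862 and 891 FPKM for Rpl34. Each of these sums lay above the median of the members, 706 FPKM by mean. FPKM divide by length, and the rows added differ in length, such as 570 transcript bases for Rpl30 and 348 for Gm12191. How the sums would stand over a common length was not tested. Against the sum for Rps27, Rps27l held 12.3% and 12.5% of the 3 rows. How the fragments were divided between member and copy was not tested, since only FPKM per symbol were used here. In all, 10 rows of the tables shared at least 50% of a member's 50-base coding words, and in these 4 the copy was above the member. The other 6 rows were below, from Rpl37rt at 29.2 and 25.7 FPKM beside Rpl37 at 356 and 341 FPKM down to Wdr89 at 0.671 and 0.847 FPKM beside Rplp2. With all 10 rows added to their members, a step chosen after the values were seen, the SD of the log2 levels was 0.92 in place of 1.39.

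**Figure D2:**
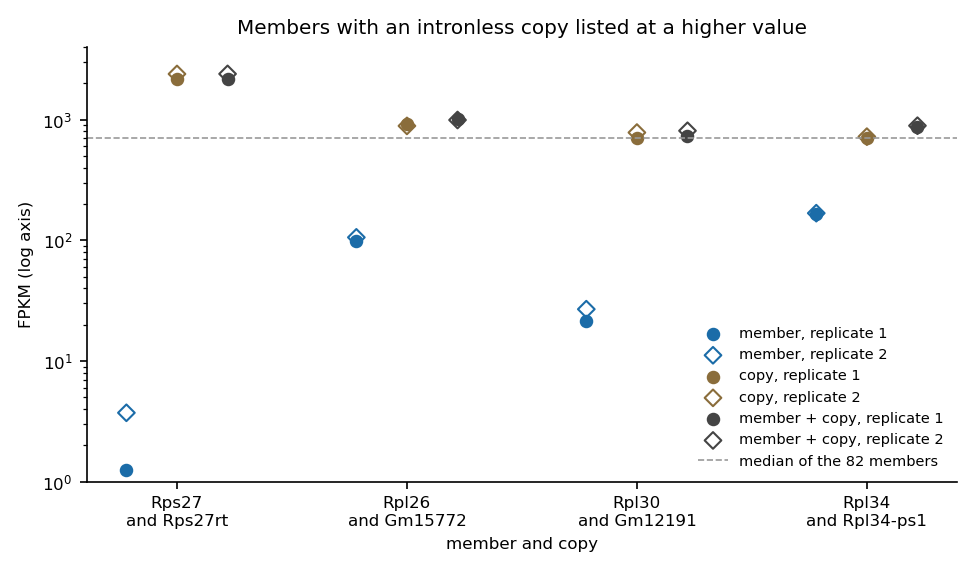
FPKM on a log axis for the 4 members whose intronless copy was listed higher, with the member in blue, the copy in brown and their sum in dark grey, circles for replicate 1 and diamonds for replicate 2. The members lie between 1.24 and 168 FPKM, and every sum lies above the dashed line at 706 FPKM, the median of the 82 members by mean. The sums add FPKM of rows that differ in transcript length.

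A further 2 low members, Rps15a and Rpl22, had no copy listed above them. Rps15a of the small subunit had 54.8 and 60.0 FPKM, and its listed copy Rps15a-ps6 had 5.97 and 5.25 FPKM. The principal annotated transcript of Rps15a has 5179 bases for 393 coding bases, and FPKM divide by length, but which transcript the submitters counted is not given in the sources used here. Rpl22 is described above with its paralog. The part of transcript choice in these levels was not tested.

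Shared sequence was a general property of the members. A median of 91.6% of their 50-base coding words occurred in other annotated genes, over 81 members with a coding part. All words were shared in 28 members, under 50% in 14 and none in 3, among them Rpl3l and Rpl39l. A median of 9 other genes shared words with a member, and Rpl7a shared words with 120. Of 77 mitochondrial ribosomal proteins, which form the separate ribosome of the mitochondria, 48 shared no word, and their median was 0%. The median mean level was 611 FPKM for the 14 members with under 50% of words shared and 711 FPKM for the other 67.

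Start sites were read in the RefSeq promoters (build GRCm38.p6), in which 61 of 82 members had an entry of 250 bases before to 50 after the start. An uninterrupted run of at least 8 C or T within 10 bases of the start stood in 28 of 61 members, or 45.9%, against 15.8% of 27025 genes. Of genes with a mean of 100 FPKM or more, 20.99% had such a run, and of mitochondrial ribosomal proteins 13.2%. The windows of 30 bases centred on the start show long runs in members of both subunits and a wide range of levels, and the 3 tissue-restricted paralogs beside them. Capitals mark the longest run of C and T near the start on the gene's strand.
Rpl7a, chr2:26910792-26910821, plus strand: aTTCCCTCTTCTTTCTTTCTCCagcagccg
Rpl27a, chr7:109519180-109519209, plus strand: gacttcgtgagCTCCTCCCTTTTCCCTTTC
Rpl35, chr2:39005117-39005146, minus strand: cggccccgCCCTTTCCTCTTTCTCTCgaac
Rpl15, chr14:18270972-18271001, minus strand: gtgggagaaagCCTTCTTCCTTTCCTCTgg
Rps10, chr17:27635230-27635259, minus strand: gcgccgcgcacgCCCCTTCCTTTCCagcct
Rpl28, chr7:4792950-4792979, plus strand: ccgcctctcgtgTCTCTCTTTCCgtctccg
Rpl38, chr11:114668565-114668594, plus strand: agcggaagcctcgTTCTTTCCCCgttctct
Rpl39l, chr16:10170213-10170242, plus strand: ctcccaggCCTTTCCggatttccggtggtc
Rpl10l, chr12:66284387-66284416, minus strand: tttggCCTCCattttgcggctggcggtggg
Rpl3l, chr17:24727811-24727840, plus strand: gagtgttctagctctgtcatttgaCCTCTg

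The run has 21 bases in Rpl7a, with 778 and 899 FPKM, and 17 in Rpl15, with 243 and 273 FPKM, so a long run was found at high and at lower members. It has 11 bases in Rpl28, the second highest member. In the paralogs Rpl39l, Rpl10l and Rpl3l it has 7, 5 and 5, but short runs were found at abundant members too, such as Rpl41 with 3 and Rps3 with 2. A run is a match of letters, and whether it acts as a TOP motif in these cells was not tested.

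For Rps27 and its copy the same windows show where the copy and the parent part. Capitals mark the 14 bases that both have in common. In these windows the bases just before them differ.
Rps27, chr3:90213634-90213663, minus strand: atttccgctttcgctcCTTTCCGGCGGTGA
Rps27rt, chr9:114982725-114982754, minus strand: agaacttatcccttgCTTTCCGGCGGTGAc

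In addition, 3 short motifs were searched on both strands of the whole 300-base promoters. CCGGAAG or CTTCCGG, the core bound by ETS factors such as Gabpa, stood in 25 of 61 members, or 41.0%, against 9.93% of all genes, 21.7% of those with a mean of 1 FPKM or more and 36.8% of mitochondrial ribosomal proteins. AAGATGG or CCATCTT, the core of the Yy1 motif, stood in 9 members, or 14.8%, against 7.28% of all genes, 8.996% of those with a mean of 1 FPKM or more and 19.1% of mitochondrial ribosomal proteins. TATAAA or TTTATA stood in 6 members, or 9.84%, against 15.7% of all genes, 8.70% of those with a mean of 1 FPKM or more and 7.35% of mitochondrial ribosomal proteins. The shares of the first motif were thus similar in both kinds of ribosomal protein, and that of the pyrimidine run was not.

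Between the libraries the members were nearly level. Over the 79 with a mean of 1 FPKM or more, the median of replicate 2 minus replicate 1 was 0.14 on the log2(FPKM + 1) scale, which understates differences of low genes. The median over all 10601 such genes was 0.11, so the members lay 0.03 above it, and it was 0.07 over the 770 genes with a mean of 100 FPKM or more. Of the 79, 69 were higher and 10 lower in replicate 2, where 64.0% of all genes were higher. With replicate 2 rescaled by the median ratio of all genes, the median of the members was 0.01 and 41 of 79 were higher. With both libraries rescaled to the same sum, the median of the members was 0.11 and 63 were higher. The size of the median difference and the count of higher members thus rest on which scaling is used, while the sign of the median did not change. Relative to the median of all genes, 46 of 79 members lay above it.

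By size, 5 of 79 members were higher by more than 1.25-fold, against 27.4% of all genes, and 0 were lower by more than 1.25-fold, against 12.5%. The 10th and 90th percentile of the difference were -0.01 and 0.28 for the members, -0.32 and 0.45 for all genes and -0.35 and 0.40 for genes with a mean of 100 FPKM or more. The range of the members was the narrowest of the 3. The 5 are Rps27, whose few fragments are given above, and Rpl14, Rps6, Rpl4 and Rpl6.

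Rpl14 of the large subunit had 389 and 544 FPKM, a difference of 0.48 on the log2(FPKM + 1) scale. Rps6 differed by 0.46, Rpl4 by 0.36, with 494 and 634 FPKM, and Rpl6 by 0.35, with 403 and 514 FPKM. Toward the other end Rps29 differed by -0.16, Rpl37a by -0.10, with 657 and 613 FPKM, and Rpl37 by -0.06. Rpl14, Rps6, Rpl4 and Rpl6 are among the longer members, and Rps29, Rpl37a and Rpl37 are among the shortest. Other members went the other way. Rps27, with 255 coding bases, differed by 1.08 and Rpl30, with 348, by 0.30, while Rplp0, with 954, differed by -0.05.

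Over the 78 members with a coding part and a mean of 1 FPKM or more, the difference went with coding length, with Spearman's rho = 0.41 and Pearson's r = 0.26, across genes, which are not replicates, with Rps27 included. The 26 members with 78 to 399 coding bases had a median difference of 0.08, the 26 with 402 to 555 bases one of 0.14 and the 26 with 567 to 1260 bases one of 0.20. Of these groups 6, 3 and 1 members were lower in replicate 2. Over all 10539 genes with an annotated transcript and a mean of 1 FPKM or more, rho with transcript length was 0.06, and with GC content it was -0.51, while rho with coding GC content was -0.32 over the 78 members. With the trend of all genes on GC content and length removed and the overall median of 0.11 added back, the 3 medians were 0.06, 0.13 and 0.24 and rho was 0.37. Fragment size and RNA quality per library were not analysed here, so their part was not tested.

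**Figure D3:**
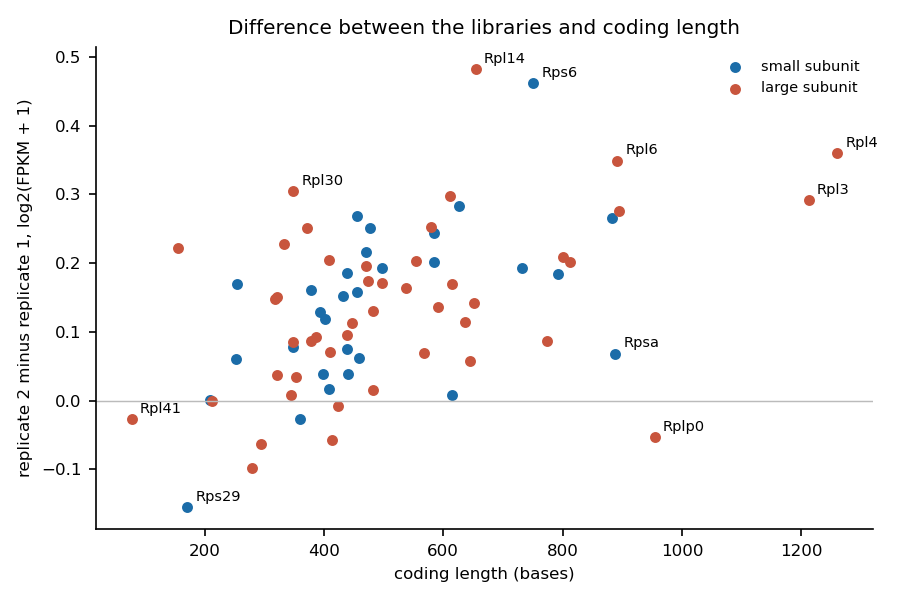
Difference between the libraries, replicate 2 minus replicate 1 in log2(FPKM + 1), against coding length in bases, each point 1 ribosomal protein gene, blue for the small and red for the large subunit. Rpl14 and Rps6 lie highest at 0.48 and 0.46, Rps29 lies at -0.16, and Rps27, with 255 bases and a difference of 1.08, is left off the plot, as is 1 member not reported here.

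The 77 mitochondrial ribosomal proteins all reached 1 FPKM in both libraries, with a median of 27.5 and 31.3 FPKM. The cytosolic median lay 4.55 above theirs on the log2(FPKM + 1) scale. Their highest members were Mrps21 with 148 and 163 FPKM, Mrpl12 with 141 and 161 FPKM and Mrpl52 with 103 and 118 FPKM. Their median difference between the libraries was 0.25, with 71 of 77 higher in replicate 2, against 0.14 and 69 of 79 for the cytosolic members. Above the median of all genes stood 60 of the 77.

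The 14 elongation and other TOP genes had a median of 141 and 179 FPKM and a median difference of 0.30, with 13 of 14 higher and 12 above the median of all genes. Eef1a1, which brings the loaded transfer RNA, had 1961 and 2548 FPKM, Tpt1, a TOP message of a tumour-associated protein, had 1753 and 1900 FPKM, and Eef2, the translocation factor, had 667 and 672 FPKM. These 3 lay in the range of the ribosomal proteins. The 24 initiation factors had medians of 52.3 and 57.8 FPKM and a median difference of 0.15, with 21 of 24 higher and 15 above the median of all genes, led by Eif1 at 326 and 361 FPKM, Eif5a at 281 and 306 FPKM and Eif4a1 at 211 and 261 FPKM.

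Genes that build ribosomes were much lower. The 30 ribosome biogenesis genes had medians of 8.63 and 10.6 FPKM and a median difference of 0.31, with 29 of 30 higher in replicate 2 and 27 above the median of all genes. The methyltransferase gene Fbl had 48.5 and 59.4 FPKM, and the small nucleolar particle genes Nop10 and Nhp2 had 48.9 and 58.8 FPKM and 31.98 and 42.3 FPKM. The 18 regulators of ribosomal protein synthesis had medians of 7.89 and 9.49 FPKM, and 11 of the 17 with a mean of 1 FPKM or more were higher and 6 lower, with a median difference of 0.21 and 10 above the median of all genes. Max, the partner of Myc, had 76.3 and 67.2 FPKM, Cnbp, which binds TOP messages, had 59.7 and 79.2 FPKM, and Eif4ebp1, the mTOR-controlled inhibitor of initiation, had 28.7 and 23.9 FPKM.

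Cell type genes also differed between the libraries. All 15 proliferation genes were higher in replicate 2 and 14 lay above the median of all genes, with a median difference of 0.46, led by Pcna at 78.1 and 111 FPKM, Birc5 at 29.3 and 36.2 FPKM and Mcm7 at 20.2 and 27.3 FPKM. Of 9 stem and crypt base genes 7 were higher and 6 above the median of all genes, with a median of 0.39, led by Olfm4 at 259 and 466 FPKM, Slc12a2 at 22.8 and 31.1 FPKM and Smoc2 at 13.6 and 19.3 FPKM. The 7 Paneth cell genes were all higher, with a median difference of 0.81 and a summed level of 16278 and 30485 FPKM, and the 7 goblet cell genes all lower, with -1.05 and 40304 and 19208 FPKM. The 12 housekeeping genes had a median difference of 0.18, the 8 epithelial genes, all lower, one of -0.19 and the 10 absorptive enterocyte genes, 5 of them higher, one of -0.11. The ribosomal protein median of 0.14 lay nearer to the 0.11 of all genes than those of these 7 lists, and the part of cell composition in it was not tested.

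**Figure D4:**
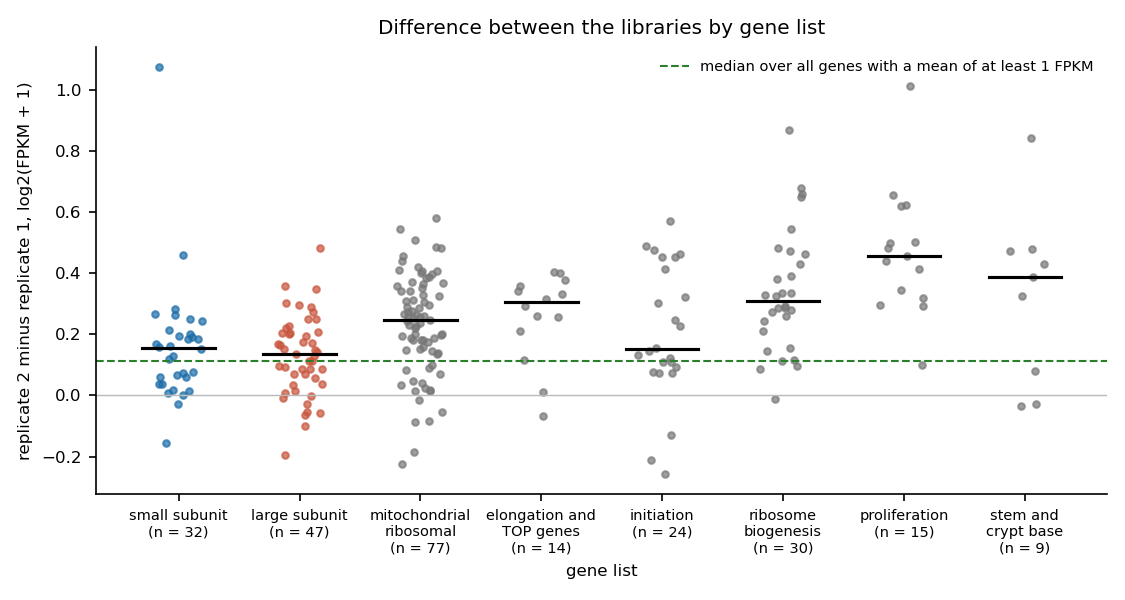
Difference between the libraries, replicate 2 minus replicate 1 in log2(FPKM + 1), for each gene with a mean of 1 FPKM or more in 8 gene lists, with black bars for list medians and a dashed line at 0.11, the median over all such genes. Small and large subunit genes have medians of 0.15 and 0.14, below those of mitochondrial ribosomal, elongation, biogenesis, proliferation and stem genes.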

How the data were processed

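Messenger RNA was measured in 2 libraries. The deposited values are the authors' FPKM per gene symbol, with TopHat2 2.0.14, Cufflinks 2.2.1 and mm10 named in the submitters' processing notes; which annotation was used, how long the reads were, and how strand and multiply matching reads were treated is not given in the sources used here. Of 24384 rows, 27 named by a date were left out. FPKM are not counts, so depth was read from the lowest values (1.62 times as many fragments in replicate 2, 1.63 by the commonest ratio of low values) and is approximate, fragments per gene being FPKM times transcript length less 160 bases. A value of 0 means listed at 0.

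Levels were compared as FPKM and differences as log2(FPKM + 1), with a minimum mean of 1 FPKM. Coordinates, coding sequences and lengths came from GENCODE M21, matched for 23982 genes, from the principal transcript of each; positions of a copy were compared with its member's coding sequence. Shared words are 50-base words found in annotated transcripts of other genes, read in the sense direction only. The trend on GC content and length was removed as medians in 10 by 5 classes. The step was tested on simulated data that held a trend on GC content only, so its removal of a length trend was not tested. Members, lists and named genes were chosen with earlier results of these data known: every member may be named, with full values for the extremes, the stalk, paralogs, X-linked members and some known genes, and the 3 highest of other lists. Rows of copies were chosen after their values were seen. Results of some genes are not reported here by name. Alternatives changed the member rule, pseudocount, minimum, scaling and library. Python 3.11.15, numpy 2.4.6, pandas 2.3.3, scipy 1.17.1, biopython 1.88 and matplotlib 3.10.9 were used.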

Additional observations from a re-analysis of the deposited data

Results flagged for a closer look

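Of the 7 rows with pseudogene symbols that the member rule leaves out, 4 carried signal in both libraries above the value that 3 fragments would give. By mean, Rpl34-ps1 had 710.5 FPKM, Rpl14-ps1 23.6 FPKM, Rpl31-ps12 19.7 FPKM and Rps15a-ps6 5.61 FPKM. Rps15a-ps4 and Rps19-ps3 were under it in 1 library each, and Rplp2-ps1, at 8.03 FPKM by mean, had no matched transcript length and was not placed. For Rpl34-ps1 the value of 3 fragments is about 0.965 and 0.595 FPKM, a floor that covers counting error only and rests on the approximate depth. The part of reads shared with the parent genes in these values was not tested.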

How the results depend on the processing

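Of 64 recomputed values 47 moved by less than the spread between the libraries, or by less than 1.5 times for counts, 17 moved further and none turned in sign. Some of the 47 could not have moved further. The share of summed FPKM is unchanged by scaling a library and stays within that spread when 1 library is left out. Counts close to the number of members cannot rise 1.5 times. The tally is thus no measure of robustness. Rescaling replicate 2 by the median ratio gave a median difference of 0.0104, and 41 of 79 members were higher. With standard subunits alone the share of summed FPKM was 10.2%, the subunit difference 0.22 and the cytosolic minus mitochondrial difference 4.58. A pseudocount of 0.1 gave 4.59 for the last, and leaving out 1 library 4.52 to 4.53. With a minimum of 1 FPKM for levels and none for the spread, the subunit difference was 0.24 and the spread of levels 2.19, and with a minimum of 10 FPKM they were 0.25 and 1.12. Over the 73 members with a transcript of at least 500 bases the spread was 1.15. Adding the copy rows, chosen after seeing the data, gave a share of 10.3%, a spread of 0.92, a subunit difference of 0.22 and 4.58 for the cytosolic minus mitochondrial difference. The cause of these moves was not tested. No paired analysis was possible because there is only 1 group. Depth limits the lowest members, such as Rps27.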

Other observations

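The Rps6k kinases, which the member rule leaves out, include those that phosphorylate Rps6. Of 10 listed, 7 reached 1 FPKM in both libraries, with Rps6ka1 highest at 92.3 and 83.4 FPKM, Rps6ka4 at 19.4 and 13.98 FPKM and Rps6kb2, one of the S6 kinases, at 10.3 and 7.63 FPKM. Rps6kb1, the other S6 kinase, had 3.14 and 3.98 FPKM. Rn45s, the precursor of the ribosomal RNAs and chosen after its values were seen, had 1821 and 831 FPKM, lower in replicate 2. The libraries were of messenger RNA, and the part of leftover ribosomal RNA in these 2 values was not tested. The median difference of the ribosomal protein genes was 0.14 as listed and 0.01 with replicate 2 rescaled by the median ratio.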
